A study of Homo sapiens with 4 samples.

Results

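Proteins bound for the secretory pathway are carried to the endoplasmic reticulum (ER), threaded through a channel in its membrane, trimmed of their signal peptide and decorated with sugars on asparagine residues. The genes of this machinery were followed in MOLM13 cells, an established line from human acute myeloid leukaemia that grows in suspension. They had been made to overexpress BTG2, an adaptor protein that brings the CCR4-NOT deadenylase to mRNA. Members were picked by a rule on gene symbols, with earlier results of these data known. The rule takes the SEC61 to SEC63, SSR, SRP, SRPR, SPCS, SEC11, RPN, STT3, ALG, DPM, EMC and GET families and OSTC, DAD1, DDOST, DPAGT1, MAGT1 and TRAM1. With it, 62 of the 11597 genes in the authors' deposited table matched. Of these, 61 are coding genes and 1, SPCS2P4, is a pseudogene of the signal peptidase gene SPCS2.

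Both groups were MOLM13 cells infected with a lentivirus and harvested 3 days later, with 2 libraries of poly(A) RNA in each. One group received a BTG2 cDNA, labelled BTG2 OE, and the other the empty vector, labelled WT. The lentiviral vector of both is named for an EF1α promoter, puromycin resistance after an IRES, and the fluorescent marker ZsGreen. Selection of infected cells is not stated, so a group may hold uninfected ones. The series title speaks of long reads while the library protocol names a directional kit with paired 150 bp reads, and the labels do not settle which of them gave these values. The design text gives the effect of BTG2 on mRNA stability as the question.

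The authors' deposited table gives BTG2 a log2 fold change of 5.01 with a standard error (SE) of 0.09, higher in the group labelled as overexpressing it. All 10 myeloid and leukaemia markers examined, such as CD33, FLT3 and HOXA9, were listed, against 0 of 5 erythroid markers, 1 of 5 for T cells (TRAC), 1 of 5 for B cells (PAX5) and 2 of 5 for epithelium (KRT8 and KRT18). Mean counts of the 10 ran from 71.6 to 6277, and KRT18, at 421 in the authors' deposited table, lay inside that range. Of the 10, 3 fell and 2 rose, among them MPO at -1.14 and HOXA9 at 0.53 in the authors' deposited table. PAX5, at a mean count of 53.1, stood at -9.28 (SE 1.47) in the authors' deposited table, and whether the cells behind its counts bear on the members was not tested. The table holds 1 mean normalized count, fold change and SE per gene and no value per library, so the spread between libraries enters only through the SE. Log2 fold changes are positive where BTG2 libraries were higher, and a gene was called changed where the authors' adjusted p was under 0.05. Intervals below are at the 95% level, from the fold change and its SE. In bulk RNA, fewer cells with a transcript and less of it per cell cannot be told apart.

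Few genes of the machinery changed beyond their error. Of the 62 genes 6 fell and 2 rose, and 54 did not pass the test. The genes that fell were SRP9, SRP72, SEC61B, SSR3, RPN1 and EMC7, and those that rose were SRP14 and ALG5. The changes of the 8 ranged from a percent change of -19.03% for SRP9 to a rise of 23.6% for ALG5. The share called was 12.9%, beside 8.11% of all listed genes. By direction, 9.68% of the members were lower, beside 4.47% of all genes, and 3.23% were higher, beside 3.64%. The median log2 fold change was -0.04 over the members and 0.00 over all genes, with 39 members below 0 and 23 above it. Below 0 were thus 62.9% of the members, beside 49.9% of all genes, with no regard to mean count. At an unadjusted p under 0.05, 11 members were lower and 4 higher, beside 9.64% and 7.92% of all genes.

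The members were also counted more deeply than most genes. They had a median mean count of 487, beside 151 over all genes, and genes with higher mean counts were called more often. Of the 1160 genes with mean counts above 934, 31.6% were called, and of the 20 members among them 6, or 30%, were called. Between mean counts of 376 and 934 the shares were 13.2% of all genes and 11.8% of 17 members. From 151 to 376, 6.66% of all genes and 0 of 12 members were called, and under 151 it was 2.59% and 0 of 13. Within each class of mean count the members' share of calls in either direction was at or under that of all genes. Their share of calls is therefore not a result about the machinery. By direction, 25% of the members above 934 were called lower and 5% higher, beside 20.3% and 11.3% of all genes there. In that class 85% of the 20 members and 65.8% of all genes stood below 0. These differences by direction were not tested. The median log2 fold change above a mean count of 934 was -0.06 over the members and -0.06 over all genes, and from 376 to 934 it was -0.09 and -0.04.

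**Figure D1:**
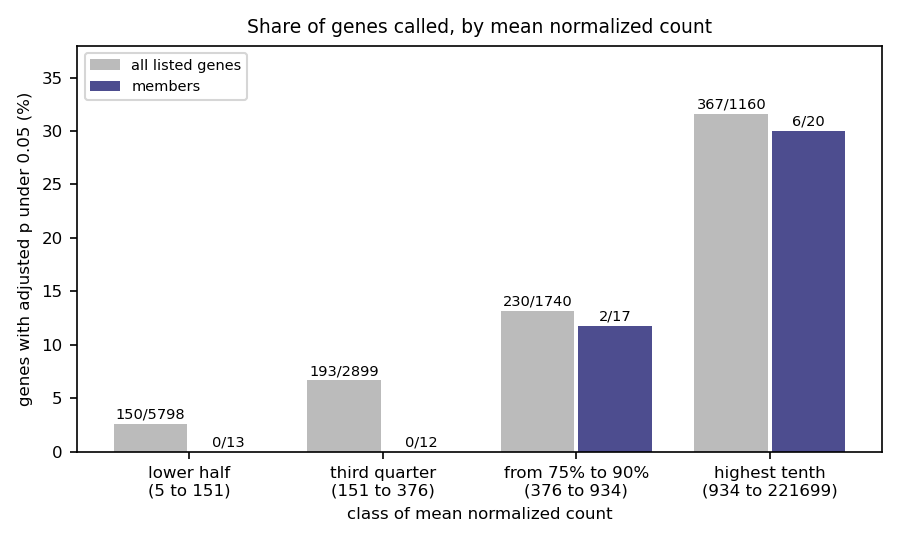
Percentage of genes called at an adjusted p under 0.05 (vertical axis) in 4 classes of mean normalized count (horizontal axis), for all listed genes (grey) and for the members (blue), with called and total genes above each bar. In the class above a mean count of 934 the bars stand at 31.6% and 30%, and below 376 the members' bars are at 0.

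**Figure D2:**
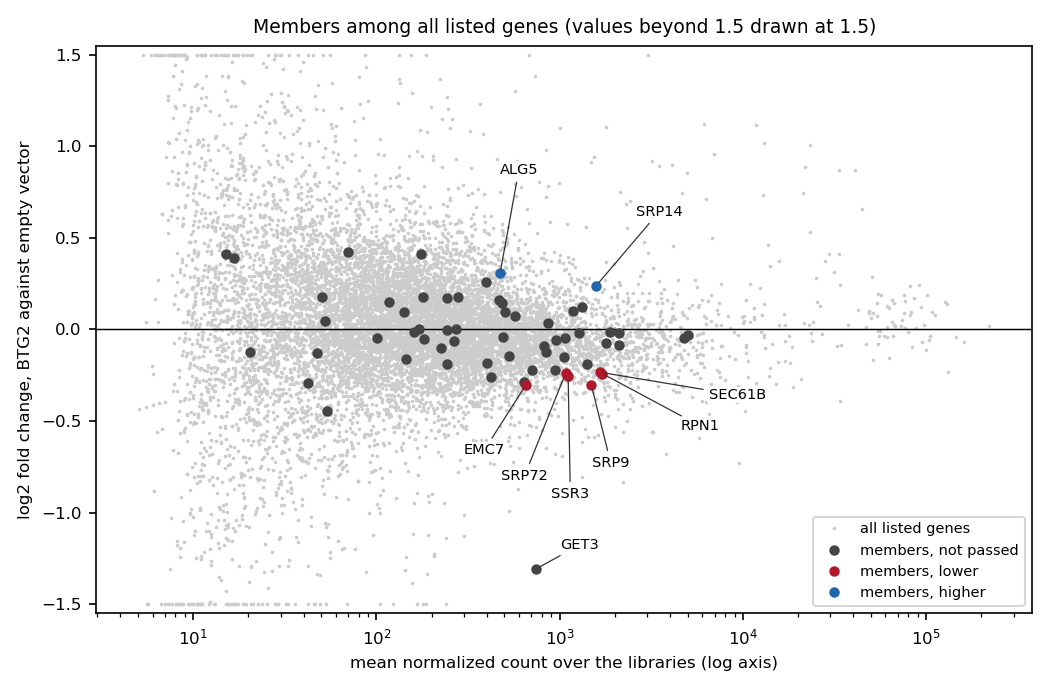
Log2 fold change of BTG2 against empty vector (vertical axis) by mean normalized count on a log axis (horizontal axis), with all listed genes in light grey and the members as larger points, red where lower, blue where higher and dark grey where not passed. The 6 lower and 2 higher members lie between -0.30 and 0.31, and GET3 stands apart at -1.31. Values of other genes beyond 1.5 are drawn at 1.5.

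On GRCh38, GENCODE release 29 places SRP9 at chr1:225777813-225790466, SSR3 at chr3:156540140-156555184 and RPN1 at chr3:128619970-128681075. It places SRP72 at chr4:56467336-56503681, SEC61B at chr9:99222064-99230615 and ALG5 at chr13:36949775-37000261. EMC7, at chr15:34084017-34101948, and SRP14, at chr15:40035739-40039188, share a chromosome and were called in opposite directions.

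The precision allows bounds on the fold changes of the members, called or not. For 50 of the 62 members the 95% interval lay inside a 1.5-fold change in either direction, and for 19 it lay inside a 1.25-fold change. The 12 with wider intervals were ALG6, ALG10, ALG10B, ALG11, ALG12, ALG14, SEC61A2, OSTC, EMC3, EMC9, GET3 and the pseudogene SPCS2P4. GET3 aside, their mean counts ran only from 15.0 for ALG12 to 176 for EMC3, and their folds are bounded only loosely.

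The signal recognition particle (SRP) binds a signal sequence as it leaves the ribosome and docks with a receptor on the ER. Of 8 measured genes for the particle and its receptor 2 fell and 1 rose, with a median log2 fold change of -0.05. That is 37.5% called, beside 8.11% of all genes. SRP9, SRP14 and SRP72 are the only genes of this group with mean counts above 934, and all of them were called. Among all genes above 934 the share called was 31.6%. The 5 other genes of the group have lower mean counts and did not pass. The calls in opposite directions fell on the partners of the Alu domain, the part of the particle that slows elongation. SRP9 is listed in the authors' deposited table at a mean count of 1490 with a log2 fold change of -0.30 (SE 0.10, adjusted p = 0.0345). Its call was lost when fold changes were recentred on the median of abundant genes (adjusted p = 0.0658 computed from the authors' SE). SRP14, with which it forms a heterodimer, stands in the authors' deposited table at 0.24 with a mean count of 1585 (SE 0.06, adjusted p = 0.00389). Their intervals, -0.50 to -0.11 for SRP9 and 0.11 to 0.36 for SRP14, did not overlap. The difference between the partners was not itself tested, since the table gives no value per library.

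SRP68 and SRP72 form the other heterodimer of the particle, and of this pair only SRP72 was called. SRP72 fell by 0.24 on the log2 scale in the authors' deposited table (mean count 1077, SE 0.07, adjusted p = 0.0132). SRP68 had a positive log2 fold change of 0.15, with an interval of -0.09 to 0.39 that reaches past 0. SRP54, the GTPase that holds the signal sequence, stood at -0.18 (interval -0.42 to 0.06) and SRP19, which helps to assemble the particle, at 0.00 (interval -0.33 to 0.33). The receptor subunits SRPRA, at -0.09, and SRPRB, at 0.18, did not pass either. Pseudogene copies of some of these genes are annotated, 4 of SRP14, 3 of SRP68, 2 of SRP72 and 1 of SRP9 by name in GENCODE release 29, and reads of a copy and its parent may not be separable.

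At the membrane, SEC61A1 forms the pore, SEC61B and SEC61G are its small subunits, and the 4 SSR proteins form the translocon-associated TRAP complex. Of the 11 measured genes of the channel and its partners 2 fell and 0 rose, or 18.2%, beside 8.11% of all genes. At an unadjusted p under 0.05 the counts were also 2 and 0, beside 9.64% and 7.92% of all genes. Both called genes have mean counts above 934, where 31.6% of all genes were called and 33.3% were lower at an unadjusted p under 0.05. SEC61B had a log2 fold change of -0.23 at a mean count of 1661 in the authors' deposited table (SE 0.06, adjusted p = 0.00338). The other subunits of the channel did not pass. SEC61A1 stood at -0.02 (interval -0.16 to 0.12) and SEC61G at -0.01 (interval -0.14 to 0.11), both measured about as tightly as SEC61B. SEC61A2, a second form of the pore, was hardly counted, with a mean of 16.7 and an interval from -0.68 to 1.46.

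Within TRAP the pattern was alike, with 1 subunit called and all 4 values below 0. All 4 have mean counts above 934, where 31.6% of all genes were called and 65.8% stood below 0. SSR3, the gamma subunit, stood at -0.26 in the authors' deposited table (mean count 1113, SE 0.07, adjusted p = 0.00543). SSR4, the delta subunit and the most counted gene of the machinery, is given by the authors' deposited table a mean count of 5035 and a log2 fold change of -0.03 (adjusted p = 0.808, SE 0.04). SSR2 stood at -0.05 and SSR1 at -0.07. The interval of SSR3, -0.39 to -0.12, overlapped that of SSR1, -0.19 to 0.05, and met that of SSR2 only at its edge, -0.13 to 0.03. It did not overlap that of SSR4, -0.11 to 0.05. The differences between these subunits were not tested. SEC62 (-0.19) and SEC63 (0.07), which assist weakly hydrophobic substrates, and TRAM1 (0.10), a membrane protein beside the channel, did not pass.

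The unfolded protein response (UPR), which raises many genes of this pathway under ER stress, acts in part through short promoter elements, so the RefSeq promoters were read for them. Promoter windows of 300 bases, 250 before to 50 after an annotated start on GRCh38.p14, were found for 53 members, 73 windows in all. RPN1, which was called, had no window and was not searched. Nor were ALG10, EMC2, GET4, SPCS1, SPCS2P4, SRPRA, STT3B and TRAM1, for the same reason. The UPR element TGACGTGG was sought on both strands, and its reverse complement contains CCACG, which also ends the ER stress element. It stood in windows of 4 members, SSR3, SSR4, SEC62 and SRP19 (7.55% of 53), beside 1.13% of the 9026 listed genes with a window. Only SSR3 of the 4 was called, and its element lies in 1 of its 3 windows, at a start downstream of the others. The element of SSR4 lies in 1 of its 2 windows. The full ER stress element, CCAAT and CCACG with 9 bases between them, was found in 1 member, ALG12, beside 0.177% of the listed genes. CCACG alone was in 66.0% of the members and 57.9% of the listed genes. The core TGACGT was found in 20.8% and 14.8%, and the amino acid response core TGATGCAAT in 0 members and 0.155% of the listed genes. A match describes these letters only and says nothing of whether a factor binds there.

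The stretches with the elements are shown because they set the called SSR3 beside members with the same letters that were not called. Each is given 5′ to 3′ on the strand of its gene with the element in capitals, and coordinates are on GRCh38.p14. SSR3 is on the minus strand at chr3:156554135-156554190, SSR4 on the plus strand at chrX:153794515-153794570, SEC62 on the plus strand at chr3:169966766-169966821 and SRP19 on the plus strand at chr5:112861151-112861206. The stretch of ALG12, on the minus strand at chr22:49918530-49918596, holds the full ER stress element. ALG12, SSR4 and SRP19 overlap listed coding genes on the opposite strand, CRELD2, IDH3G and REEP5 in that order. Which gene of such a pair an element belongs to was not tested. The first base of the element lies 41 bases before the annotated start in SSR3, 129 in SSR4, 17 in SEC62, 112 in SRP19 and 134 in ALG12.
SSR3: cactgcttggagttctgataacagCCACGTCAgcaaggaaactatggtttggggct
SSR4: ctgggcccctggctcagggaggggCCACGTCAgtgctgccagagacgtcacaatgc
SEC62: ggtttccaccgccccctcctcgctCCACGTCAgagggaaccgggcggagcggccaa
SRP19: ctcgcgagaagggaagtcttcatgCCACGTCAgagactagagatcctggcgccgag
ALG12: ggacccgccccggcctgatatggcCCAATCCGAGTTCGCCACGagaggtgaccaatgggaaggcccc
All 4 UPR elements read in the same orientation, as CCACGTCA on the strand of the gene. Their log2 fold changes in the authors' deposited table were -0.26 for SSR3, -0.03 for SSR4, -0.19 for SEC62 and 0.00 for SRP19, and 0.41 (SE 0.60) for ALG12. The smallest change that could have been called was 0.11 in SSR4, 0.56 in SEC62, 0.48 in SRP19 and 1.74 in ALG12. A change of the size of that in SSR3 could thus have been called in SSR4 but not in SEC62, SRP19 or ALG12.

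Signal peptidase cuts the signal peptide from the chain as it enters the ER. Of its 5 genes 0 were called, beside 8.11% of all genes. At an unadjusted p under 0.05 only SPCS2 was lower, beside 9.64% of all genes. SPCS2 stood in the authors' deposited table at -0.22 (adjusted p = 0.0808), beside 0.05 for its pseudogene SPCS2P4, whose interval ran from -0.61 to 0.71. SPCS1, the most counted of the group, stood in the authors' deposited table at -0.02 with a mean count of 2096 (SE 0.06, adjusted p = 0.938), and its sign turns when fold changes are recentred on the median of abundant genes. SPCS3 (0.03) and the alternative catalytic subunits SEC11A (-0.06) and SEC11C (-0.04) had intervals that reached no further than -0.25 or 0.21.

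Oligosaccharyltransferase moves the finished glycan from its lipid carrier to asparagine. Of its 8 measured genes 1 fell and 0 rose, with a median log2 fold change of -0.14. That is 12.5% called, beside 8.11% of all genes and 31.6% of those with mean counts above 934. At an unadjusted p under 0.05, 3 were lower. That limit was passed in the lower direction by 9.64% of all genes and by 33.3% of those with mean counts above 934, where 5 of the 8 lie. RPN1, ribophorin I, which is shared by both forms of the enzyme, stood at -0.24 in the authors' deposited table (mean count 1707, SE 0.06, adjusted p = 0.00336). RPN2, ribophorin II, a shared subunit as well, stood on the other side of 0 at 0.12, with an interval of -0.01 to 0.25. That interval did not overlap the one of RPN1, -0.36 to -0.12, but the difference between them was not tested.

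The remaining shared subunits DDOST (-0.19, adjusted p = 0.0916) and DAD1 (-0.08, adjusted p = 0.501) did not pass in the authors' deposited table, where DAD1 has the highest mean count of the enzyme, 2100, and an SE of 0.06. The alternative catalytic subunits were close to each other, with STT3A at -0.12 and STT3B at -0.15. MAGT1, which belongs to the STT3B form, stood at -0.26 and OSTC, of the STT3A form, at 0.15, and neither passed.

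The glycan is built on dolichol, sugar by sugar, by DPAGT1, the ALG glycosyltransferases and the donors that the DPM complex and ALG5 supply. Of these 17 genes 1 rose and 0 fell, or 5.88% called, beside 8.11% of all genes. At an unadjusted p under 0.05, 2 were higher and 2 lower, beside 7.92% of all genes higher and 9.64% lower. The median log2 fold change was 0.00. ALG5, which makes dolichol-phosphate glucose, rose by 0.31 in the authors' deposited table (mean count 473, SE 0.11), with an adjusted p of 0.0474 just inside the threshold. ALG5 on chromosome 13 overlaps EXOSC8 on the opposite strand, which the authors' deposited table lists at -0.25 (SE 0.07). The library kit keeps the strand, but nothing says that the counting used it, so reads of this overlapping pair may not be separable.

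ALG8, which adds a glucose to the same glycan, stood in the authors' deposited table at -0.29 (adjusted p = 0.0808), and ALG6, which adds the glucose before it, at 0.42 with an interval from -0.13 to 0.98. DPM1, the catalytic subunit of dolichol-phosphate mannose synthase and the most counted gene here, stood in the authors' deposited table at -0.22 with a mean count of 708 (SE 0.10, adjusted p = 0.188). Its partners DPM2, at 0.16, and DPM3, at 0.09, were above 0. DPAGT1, which starts the chain, stood at -0.06 (interval -0.33 to 0.20). Among the mannosyltransferases ALG1 (0.18), ALG2 (-0.16), ALG3 (0.26), ALG9 (-0.01), ALG11 (-0.13) and ALG12 (0.41) lay on both sides of 0 with 0 called. ALG13 stood at 0.00 and its partner ALG14 at -0.29, and the glucosyltransferases ALG10 and ALG10B at -0.12 and 0.18. The 5 ALG genes with a mean count under 60 had SEs from 0.32 to 0.60, so the smallest change that could have been called in them ran from 0.92 to 1.74.

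Multi-spanning and tail-anchored proteins use the EMC insertase and the GET pathway instead of, or beside, the SEC61 channel. Of 12 genes 1 fell and 0 rose, or 8.33% called, beside 8.11% of all genes. At an unadjusted p under 0.05, 1 was lower and 1 higher, near the 9.64% and 7.92% of all genes. EMC7, a subunit with a lumenal domain, stood at -0.30 in the authors' deposited table (mean count 656, SE 0.09, adjusted p = 0.0121). EMC4, the most counted gene of the group, stood in the authors' deposited table at -0.04 with a mean count of 1070 (SE 0.09, adjusted p = 0.911). EMC3, the core insertase subunit, stood in the authors' deposited table at 0.41 (adjusted p = 0.130), the highest value of the group. Its interval of 0.08 to 0.74 did not overlap that of EMC7, -0.47 to -0.13, but the difference between them was not tested. EMC6, the partner of EMC3 in the membrane, was at -0.15. EMC1 (0.10), EMC2 (0.17), EMC8 (-0.05), EMC9 (-0.44) and EMC10 (0.00) did not pass.

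GET3, the ATPase that carries tail-anchored proteins, has no usable fold. The authors' deposited table lists it at a mean count of 742 with a log2 fold change of -1.31 and an SE of 3.47, an interval from -8.11 to 5.49. The other 210 genes with mean counts from 700 to 800 had a median SE of 0.09 and a largest of 0.32. GET1, a subunit of its membrane receptor, stood at -0.10 and GET4, which hands substrates to it, at -0.04, with intervals of -0.39 to 0.19 and -0.58 to 0.50.

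**Figure D3:**
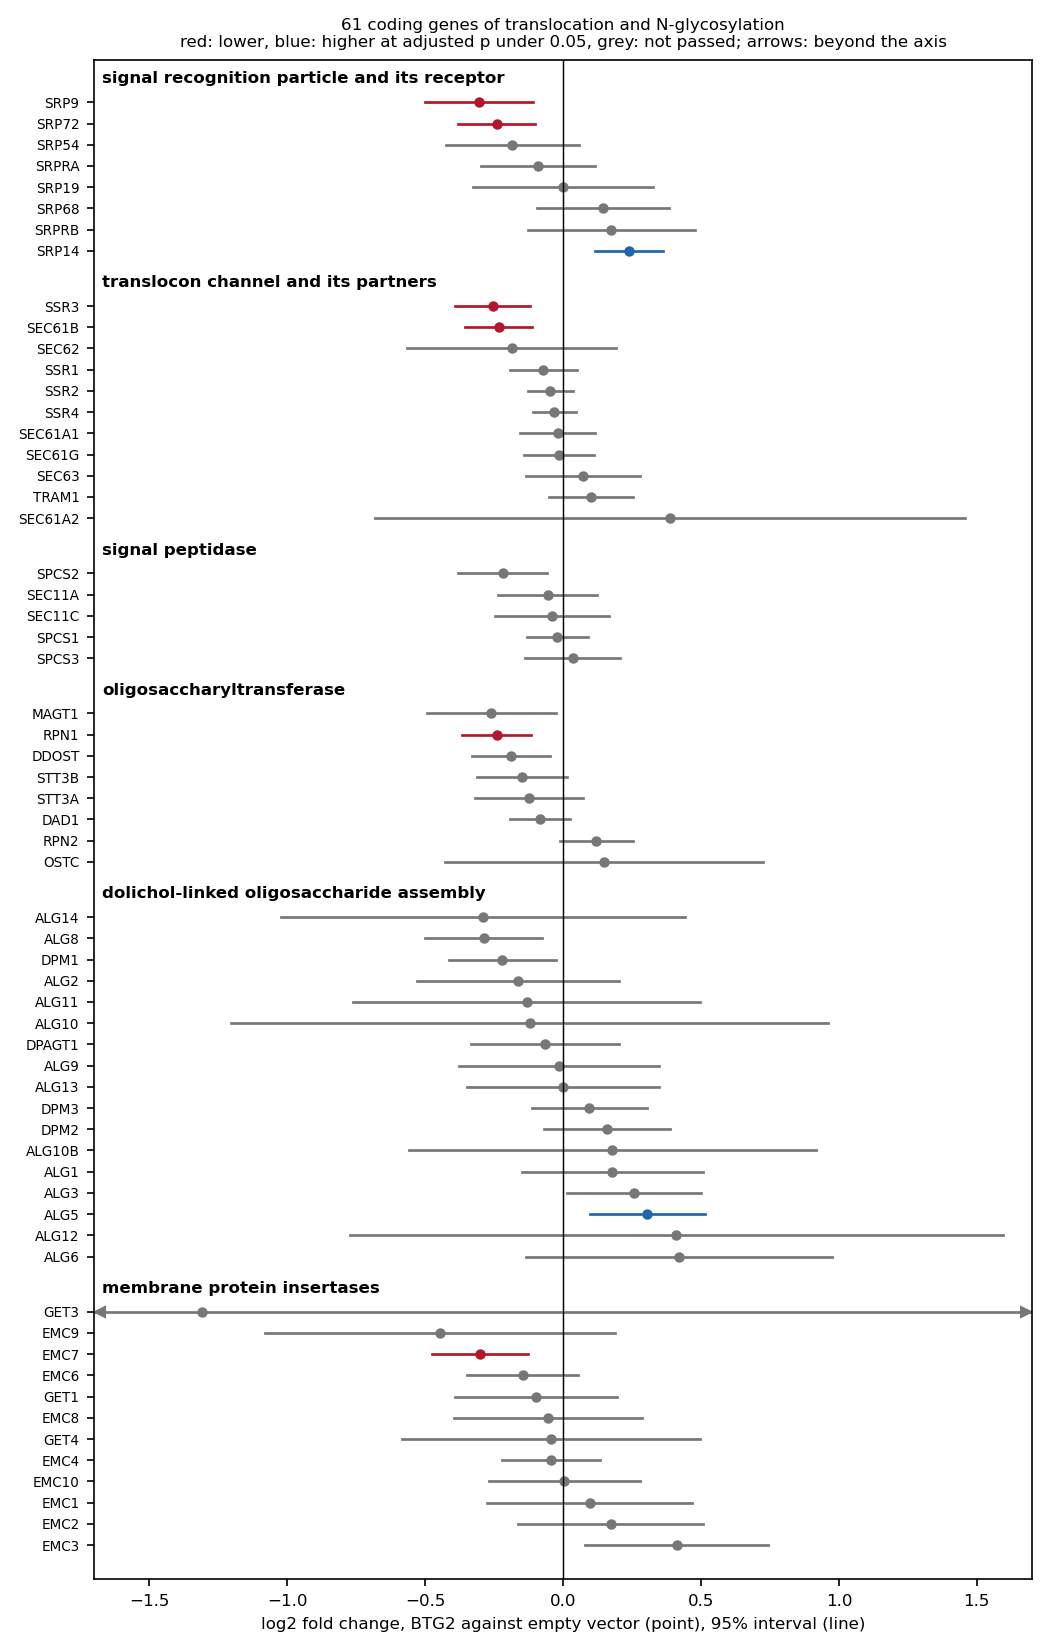
Log2 fold change of BTG2 against empty vector (points) with its 95% interval (lines, horizontal axis) for the 61 coding members, grouped by role, in red where lower and blue where higher at an adjusted p under 0.05 and in grey where not passed. The red and blue points are scattered over 5 of the 6 groups and stand beside grey subunits of the same complexes, with SRP9 and SRP14 at opposite ends of the first group.

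The lists of other genes in the pathway cover enzymes and subunits outside the symbol rule. Of 50 measured genes of the 52 listed 1 fell and 0 rose, or 2%, beside 8.11% of all genes, with a median log2 fold change of 0.00. At an unadjusted p under 0.05, 8 were lower and 4 higher, beside 9.64% and 7.92% of all genes. The gene that fell was CALR, calreticulin, a lectin chaperone of the lumen, at -0.73 (SE 0.04) in the authors' deposited table. Its membrane-bound counterpart CANX, calnexin, stood at 0.07 with an interval of -0.05 to 0.18. PDIA3, the disulfide isomerase that works with both, stood at -0.16 (adjusted p = 0.0555) in the authors' deposited table. None of the 13 remaining subunits of oligosaccharyltransferase and the multipass translocon passed, with values from -0.27 for NOMO3 to 0.18 for MMGT1, an EMC subunit. Nor did any of the 16 genes that supply dolichol and sugar donors, from -0.57 for SRD5A3 to 0.59 for GMPPB, or of the 6 that handle nascent and tail-anchored chains in the cytosol, from -0.10 for UBL4A to 0.16 for CAMLG.

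Transcript lengths are given because the study asked about mRNA stability. In GENCODE release 29 the coding transcript with the longest reading frame had a median coding length of 984 bases in the 61 coding members and 1392 bases in 10496 listed coding genes. Median 3′ UTR lengths were 567 and 972 bases. The 6 genes that fell had 3′ UTRs from 191 bases in SEC61B to 1820 bases in SRP72, with a median of 412 bases. SRP14, which rose, has a 3′ UTR of 594 bases and its partner SRP9, which fell, one of 1107 bases. ALG5, which rose as well, has one of 112 bases, shorter than that of any of the 6 that fell. The 53 coding members that did not pass had a median of 603 bases. These lengths are a description, and which isoforms the cells used was not analysed here.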

How the data were processed

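RNA was measured in 4 libraries, 2 per group, assigned from sample titles; minimap2 and hg38 were used, per the submitters' processing notes. Counter, normalization, annotation, filter and test program are not given in the sources at hand. The authors deposited 1 table of their comparison with 6 numeric columns. Its mean count is a non-negative signal pooled over libraries, per the file headers. The fold change and SE are log2 values, as deposited by the authors. The deposited test statistic is a score, and the deposited p-value and adjusted p-value follow from it (the score equals fold change over SE, and the adjustment is Benjamini-Hochberg over all listed genes, within 1.48e-06). Depth per library is unknown, and replicates may be technical, since the labels do not say that cultures were separate.

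Members and gene lists were chosen with earlier results of these data known. Full values are given for each called member and for the most counted member of each role group, other members by fold change. Calls are the authors' adjusted p under 0.05, and tests computed from the authors' values were added only as alternatives. Intervals are fold change ± 1.96 SE. Alternatives were other limits (0.01, 0.1), a test for changes beyond 0.2 on the log2 scale, 2 recentrings, and abundant genes alone; recentring and the threshold test were tested on simulated data. Classes of mean count were chosen after seeing the data. All 62 members matched GENCODE release 29 by Ensembl identifier. Planned protein features were not computed. Computation used Python 3.11.15, pandas 2.3.3 and scipy 1.17.1.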

Additional observations from a re-analysis of the deposited data

How the results depend on the processing

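No paired analysis was possible because the table analysed holds no value per library; replicates could not be left out in turn for the same reason. Of the 6 lower and 2 higher members, 3 and 1 kept an adjusted p under 0.01 (RPN1, SEC61B, SSR3 and SRP14), and 0 and 0 passed a test for changes beyond 0.2 on the log2 scale, so none is shown to exceed that size. At a limit of 0.1 members reached 9 lower and 2 higher, adding ALG8, SPCS2 and DDOST. Recentring on the median of abundant genes, a shift of -0.03, left 5 lower and 2 higher: SRP9 no longer passed (-0.28, adjusted p = 0.0658 from the authors' SE), and SPCS1, never called, changed sign to 0.0057. The other genes of the pathway went from 1 lower and 0 higher to 3 lower and 1 higher at a limit of 0.1, to 3 and 1 with p-values adjusted over abundant genes alone (where members reached 8 and 2), and to 1 and 2 with that recentring, in each case by the setting's own construction. The members' median, -0.04, lay between -0.05 and -0.02 under the alternatives run, the latter with that recentring, and their mean weighted by the inverse squared SE was -0.06.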

Other observations

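The RNA component of SRP, 7SL, is no member by symbol, and was looked up after the protein values were seen. In the authors' deposited table RN7SL1 rose by 0.68 on the log2 scale (mean count 99.8, SE 0.24, adjusted p = 0.0479), and RN7SL2 stood at 0.16 (SE 0.46) at a mean count of 22.7. The 7SL RNA is not normally polyadenylated and has many near-identical copies, so its counts in poly(A) libraries and their assignment to a copy are uncertain.

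GET3 was 1 of 2 genes, among 2253 with a mean count of at least 500, whose SE was above 2. The other was CNOT6L, a deadenylase subunit of CCR4-NOT, at a mean count of 527 with a log2 fold change of -0.99 (SE 3.40) in the authors' deposited table. Neither value measures a fold.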
